A study of Mus musculus with 12 samples.

Results

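A set of 10 genes of triglyceride synthesis, lipid droplets and lipolysis was followed in mouse liver: *Gpam*, *Agpat2*, *Lpin1*, *Lpin2*, *Dgat1*, *Dgat2*, *Pnpla2*, *Cideb*, *Cidec* and *Plin5*. They were taken by symbol, after Ensembl identifiers had been matched to symbols, and all 10 were found among the 16346 genes of the table and passed the filter on low values. Gene positions are given on GRCm38. Liver RNA-seq libraries came from 12 mice aged 12 weeks and labelled C57BL6J, with 2 mice in each of 6 groups. Every mouse carried floxed *Med13* alleles. Control *Med13* fl/fl mice were compared with MED13-LKO mice, which also carried Cre under the hepatocyte promoter of the albumin gene (*Alb*-Cre), and a group with *Alb*-Cre alone is not among the 12 libraries. Mice of each genotype were fasted overnight for 16 h, or were refed for 4 h with normal chow and either 30% sucrose or 30% fructose in the drinking water. The fed mice were killed later in the day than the fasted mice, so feeding and time of day cannot be told apart. A feeding difference here is one of chow and sugar water together against no food.

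Triglycerides are built in the endoplasmic reticulum by adding fatty acids stepwise to glycerol 3-phosphate. *Gpam* encodes the mitochondrial enzyme of the first acylation, *Agpat2* one of the second, *Lpin1* and *Lpin2* the lipins, which are phosphatidate phosphatases, and *Dgat1* and *Dgat2* the enzymes of the last acylation. The product is stored in lipid droplets, whose surface carries perilipins such as PLIN5 and CIDE proteins such as CIDEB and CIDEC, and is broken down first by the lipase ATGL, encoded by *Pnpla2*. During a fast the liver takes up fatty acids released by adipose tissue, and it both oxidises them and stores them in droplets. After a meal rich in sugar it makes fatty acids from carbohydrate.

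Sums of the authors' normalized counts ran from 21060000 to 24150000 over the control livers and from 17310000 to 18740000 over the MED13-LKO-labelled livers. From the steps between low values, the reads counted on genes were estimated at 16090000 to 24230000 per library. *Med13* was no lower in MED13-LKO-labelled livers, where it ran from 646.4 to 1055.1 normalized counts against 577.6 to 796.3 in control libraries (limma, log2 difference over the diets 0.22, adjusted p = 0.201), so the label is used here as given. Values per gene cannot show the loss of single exons. *Nnt*, which is partly deleted in the C57BL/6J substrain and not in most others, had 528.6 to 1004.3 normalized counts in control livers and 2616.6 to 3687.1 in those labelled MED13-LKO (adjusted p = 5.69e-06 over the diets). The part of any difference in strain background in the genotype results was not tested. Genotype and such a difference cannot be told apart here. The hepatocyte markers *Alb*, *Apoa1*, *Ttr*, *Cps1* and *Tat* were abundant in every library, with sums of 2150617.1 to 2885789.4 in control libraries and 1619653.9 to 2007771.0 in those labelled MED13-LKO. Summed markers of sinusoidal endothelium ran from 2265.1 to 2853.5 and from 2656.4 to 3817.6, and those of Kupffer cells from 3460.1 to 4749.6 and from 4320.6 to 5685.4, in the same order of genotypes. Over the diets, *Cd5l* alone of the 5 Kupffer cell markers was called between genotypes, with log2 differences of the 5 from 0.02 to 0.63. Of the 4 endothelial markers *Stab2* and *Clec4g* were called higher, with differences of the 4 from 0.16 to 0.37. The part of these differences in the genotype results was not tested, and in bulk tissue fewer cells of a type and less RNA per cell cannot be told apart. Of 6 adipocyte markers, 4 were in the table. Control fructose replicate 1 stood apart for *Adipoq*, *Cfd* and *Retn*, at 22.5, 77.2 and 9.94 normalized counts. No other library passed 3.44, 2.07 and 2.79 for these. *Adrb3*, the other marker in the table, did not set it apart, at 44.4 there and 26.9 to 70.0 elsewhere. The summed level of that library, 154.0, was the highest of the control libraries, whose lowest was 30.6. The MED13-LKO-labelled livers had sums of 47.6 to 76.0. In every library but control fructose replicate 1, *Adrb3* made up most of the sum. Because *Cidec* and *Plin5* are also expressed in fat, their results that use control fructose replicate 1 are given with and without it. The same was not done for every other member, and the part of fat in their values was not tested.

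*Lpin1*, *Lpin2* and *Pnpla2* were called lower in all 4 feeding comparisons and *Plin5* in 3 of them. The promoters of these members are shown. These members shared that direction with feeding but not the direction between genotypes. The sequences are RefSeq promoter windows for GRCm38.p6, 250 bases upstream of an annotated start, written 5′ to 3′ on the gene's strand. Windows were found for 8 of the 10 genes, 13 in all, and for *Lpin2* and *Plin5* only 1 of several is printed. Capitals mark matches, on either strand, to an E-box (CACGTG), a nuclear receptor half-site (AGGTCA) or a glucocorticoid half-site (AGAACA), of which none overlap. The windows are chr12:16610967-16611216 (minus strand) for *Lpin1*, chr17:71183282-71183531 (plus strand) for *Lpin2*, chr7:141454938-141455187 (plus strand) for *Pnpla2* and chr17:56117549-56117798 (minus strand) for *Plin5*.
Lpin1: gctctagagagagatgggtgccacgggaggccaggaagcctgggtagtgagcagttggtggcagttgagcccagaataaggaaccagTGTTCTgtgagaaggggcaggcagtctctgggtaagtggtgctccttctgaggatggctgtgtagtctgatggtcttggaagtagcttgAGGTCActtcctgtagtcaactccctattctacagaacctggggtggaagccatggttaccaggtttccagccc
Lpin2: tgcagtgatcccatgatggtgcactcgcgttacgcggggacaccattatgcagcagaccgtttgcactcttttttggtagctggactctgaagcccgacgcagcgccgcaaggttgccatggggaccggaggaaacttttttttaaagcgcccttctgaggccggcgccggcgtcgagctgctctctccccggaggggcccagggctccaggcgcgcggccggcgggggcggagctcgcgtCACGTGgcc
Pnpla2: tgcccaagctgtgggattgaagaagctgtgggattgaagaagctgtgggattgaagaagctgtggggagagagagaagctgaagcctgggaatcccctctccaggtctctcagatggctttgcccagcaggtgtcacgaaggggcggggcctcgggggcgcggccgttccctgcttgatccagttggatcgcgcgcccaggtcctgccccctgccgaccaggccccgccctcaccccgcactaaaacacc
Plin5: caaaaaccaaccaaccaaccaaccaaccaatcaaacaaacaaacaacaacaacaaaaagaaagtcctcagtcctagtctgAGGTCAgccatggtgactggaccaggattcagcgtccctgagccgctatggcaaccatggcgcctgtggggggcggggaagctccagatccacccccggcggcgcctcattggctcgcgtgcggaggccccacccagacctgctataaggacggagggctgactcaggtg

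*Lpin1* held the nuclear receptor half-site from -74 to -69 and the glucocorticoid half-site from -163 to -158, counted from the start. *Lpin2* held the E-box from -9 to -4, *Plin5* held the nuclear receptor half-site from -170 to -165, and *Pnpla2* held none of the 3. Of 32851 promoter windows of the same length, 6.02% held the E-box, 14.0% the nuclear receptor half-site and 16.1% the glucocorticoid half-site. A forkhead motif (GTAAACA, in 3.17% of windows), an SRE (TCACNCCAC, in 1.05%) and a CRE (TGACGTCA, in 1.55%) were also searched and matched none of the printed windows, nor did a direct repeat of the half-site (in 0.484%). Of the windows not printed, the third of *Lpin2* held a forkhead motif from -138 to -132 and a glucocorticoid half-site from -203 to -198, and the second of *Lpin2* and the first of *Plin5* held none. These matches describe letters and not binding.

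The lipin genes and the lipase gene were lower in fed than in fasted mice of both genotypes, and *Agpat2* was higher in control mice after either sugar. In control mice 5 of the 10 genes passed the test after sucrose, with *Agpat2* higher and *Lpin1*, *Lpin2*, *Pnpla2* and *Plin5* lower. Over all 12366 genes tested, 8.57% were called, 4.85% higher and 3.72% lower. After fructose 4 of the 10 were called in control mice, *Agpat2* higher and *Lpin1*, *Lpin2* and *Pnpla2* lower, against 5.60% of all genes, 2.79% higher and 2.81% lower. In MED13-LKO-labelled livers the same 5 genes as in control mice were called after sucrose, in the same directions, against 5.71% of all genes, 2.23% higher and 3.48% lower. After fructose *Lpin1*, *Lpin2*, *Pnpla2* and *Plin5* were called lower there and none higher, against 6.53% of all genes, 2.94% higher and 3.58% lower. The median log2 difference of the 10 genes was -0.19 after sucrose in control mice (-0.25 after fructose over the 9 without *Gpam*), and -0.76 and -0.48 in MED13-LKO-labelled livers, where the medians of all genes lay between -0.02 and 0.0045. Each genotype's 2 feeding comparisons share their fasted mice. Differences are on the scale of log2(normalized count + 1), which understates changes of low genes, a gene is called when its adjusted p from limma is under 0.05, and errors after a log2 difference are standard errors.

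**Figure D1:**
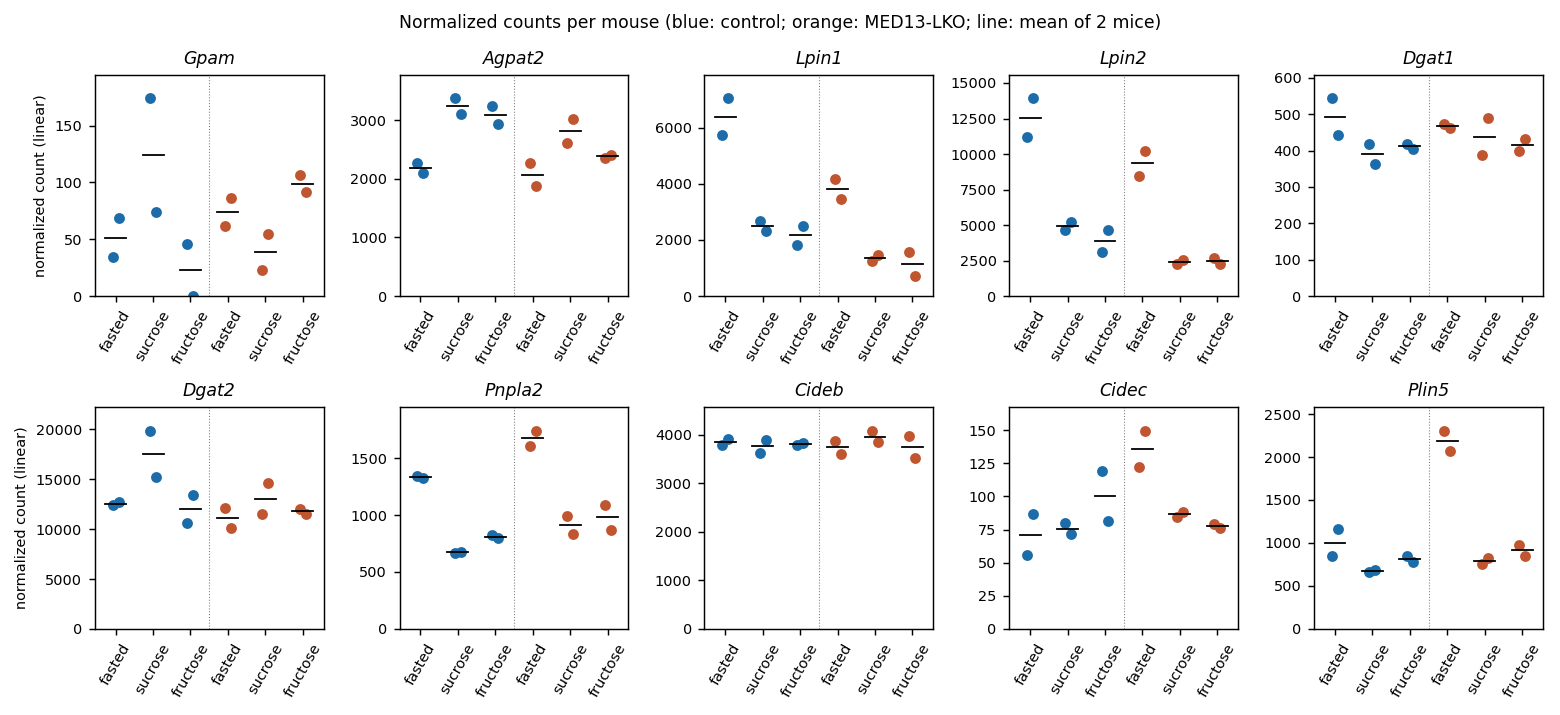
Normalized counts (vertical axis, linear, from 0) of the 10 genes in each mouse, by diet, for control mice (blue) and MED13-LKO-labelled livers (orange), with a line at the mean of 2 mice. *Lpin1*, *Lpin2* and *Pnpla2* stood higher in the fasted mice of each genotype than in its fed mice, and *Plin5* was highest in the fasted MED13-LKO-labelled livers, at 2302 and 2071.

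*Lpin2* (chr17:71182560-71249817, plus strand), the lipin most abundant in liver, fell with both sugars in both genotypes. Control mice had 11179 and 13924 normalized counts when fasted, 4678 and 5244 after sucrose and 3135 and 4687 after fructose. The MED13-LKO-labelled livers had 8483 and 10198, then 2283 and 2551, then 2677 and 2268 in the same order of diets. Fed and fasted mice did not overlap in either genotype, and at each diet both MED13-LKO-labelled livers lay below both control libraries. The share of all genes whose groups separate in this way was not counted, here or for the genes below. The log2 difference was -1.33 ± 0.186 after sucrose in control mice (adjusted p = 0.00265) and -1.70 after fructose (adjusted p = 0.00224). It was -1.95 after sucrose (adjusted p = 0.0012) and -1.92 after fructose (adjusted p = 0.00178) in MED13-LKO-labelled livers. All 4 calls were kept when any 1 mouse was left out, but the one after fructose in control mice was lost when only those 4 libraries were fitted (adjusted p = 0.0923). Between genotypes, *Lpin2* differed by -1.04 ± 0.186 after sucrose (adjusted p = 0.0113), and by -0.42 when fasted and -0.64 after fructose (adjusted p = 0.187 and 0.068). The call after sucrose was lost without control sucrose replicate 2 (adjusted p = 0.0798) or without MED13-LKO sucrose replicate 1 (adjusted p = 0.1). The difference after fructose depended on the mice left out, at -0.93 without control fructose replicate 1, where it was called (adjusted p = 0.0163), and at -0.35 without control fructose replicate 2 (adjusted p = 0.247). Over the 3 diets the difference was -0.70 ± 0.107 (adjusted p = 0.00129).

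*Lpin1* (chr12:16535669-16610966, minus strand), whose product also acts as a transcriptional coactivator in fasted liver, followed the same course with a wider spread. Its normalized counts in control mice were 5738 and 7043 when fasted, 2675 and 2315 after sucrose and 1829 and 2490 after fructose. The MED13-LKO-labelled livers had 4162 and 3461, then 1251 and 1461, then 1580 and 729. No fed mouse reached a fasted mouse of its genotype, and at each diet the genotypes did not overlap. After sucrose *Lpin1* differed from the fasted state by -1.35 ± 0.297 in control mice and by -1.49 in MED13-LKO-labelled livers (adjusted p = 0.0222 and 0.0193). After fructose the differences were -1.57 and -1.82 (adjusted p = 0.0171 and 0.00903). Leaving out any 1 of the 4 mice compared ended the sucrose calls, with adjusted p of 0.0626 to 0.139 in control mice and 0.0798 to 0.117 in MED13-LKO-labelled livers. The fructose call in control mice was lost without either fasted mouse or without control fructose replicate 1 (adjusted p = 0.0538 to 0.123), and that in MED13-LKO-labelled livers without MED13-LKO fasted replicate 1 (adjusted p = 0.0607). Between genotypes the difference over the 3 diets was -0.87 ± 0.172 (adjusted p = 0.00513). Within a diet it was -0.74 when fasted, -0.88 after sucrose and -0.99 after fructose, none of which was called (adjusted p = 0.15, 0.123 and 0.0751). These were called with either fructose-fed MED13-LKO-labelled liver left out for the fasted state and sucrose (adjusted p = 0.0341 to 0.0342 and 0.021 to 0.0211), while after fructose the difference went from -1.55 without replicate 1 of these (adjusted p = 0.00662) to -0.43 without replicate 2 (adjusted p = 0.34). Those for the fasted state and sucrose were also called in a fit of the 2 groups alone (adjusted p = 0.0344 and 0.014). With only the fasted and fructose-fed control mice fitted, the fructose call in control mice was lost (adjusted p = 0.0826).

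*Agpat2* (chr2:26593057-26604417, minus strand) was the gene of the 10 that was called higher with feeding. It had 2266 and 2093 normalized counts in fasted control mice, 3371 and 3102 after sucrose and 3247 and 2938 after fructose. In MED13-LKO-labelled livers the counts were 2264 and 1878, then 2615 and 3015, then 2351 and 2407. Fed mice lay above fasted mice in each genotype, and with either sugar both MED13-LKO-labelled livers lay below both control libraries. The rise was 0.57 ± 0.109 after sucrose and 0.50 after fructose in control mice (adjusted p = 0.0125 and 0.03), and 0.45 and 0.21 in MED13-LKO-labelled livers (adjusted p = 0.0438 and 0.291). With only the compared groups fitted, the fructose call in control mice was lost (adjusted p = 0.138). In control mice the sucrose call was lost without control fasted replicate 2 or control sucrose replicate 1 (adjusted p = 0.101 and 0.0912), and the fructose call without either fasted mouse or control fructose replicate 1 (adjusted p = 0.0791 to 0.181). The sucrose call in MED13-LKO-labelled livers held in 3 of the 12 fits that leave out 1 mouse and was lost in the others (adjusted p = 0.0555 to 0.275), and with only the compared groups (adjusted p = 0.0849). Averaged over the diets, *Agpat2* was 0.22 ± 0.0632 lower in these libraries on the log2 scale (log2 difference -0.22, adjusted p = 0.0294), a call kept in 5 of 12 such fits (adjusted p of 0.0563 to 0.0844 in the other 7).

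*Gpam* (chr19:55067268-55127238, minus strand) gave no stable value. Control mice had 34.1 and 68.7 normalized counts when fasted and 174 and 74.2 after sucrose, and after fructose 46.2 in one and a listed 0 in the other. In MED13-LKO-labelled livers it had 62.0 and 86.3 when fasted, 23.0 and 55.0 after sucrose and 106 and 91.2 after fructose. An exact 0 can be a failed estimate, so no difference against the fructose-fed control mice is given, and counts at an unadjusted p and medians that would use one are given over the other 9 genes. The other comparisons of *Gpam* were not called, with log2 differences such as 1.21 ± 1.34 for sucrose against fasted in control mice. Per kilobase of the longest coding transcript its median level was 10.6 normalized counts, the lowest of the 10 genes, against 1686 for *Agpat2*, 830 for *Lpin2*, 430 for *Lpin1* and 5429 for *Dgat2*, the highest. Whether the unstable values of *Gpam* give its true level in these livers was not tested.

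*Dgat1* and *Dgat2*, which encode unrelated enzymes for the same last step, were not called in any comparison. *Dgat1* (chr15:76502015-76511953, minus strand) ran from 361.9 to 543.5 normalized counts over the 12 mice. It was 493 ± 71.4 (SD, n = 2) in fasted control mice and 390 ± 40.1 (SD, n = 2) after sucrose, a log2 difference of -0.33 (adjusted p = 0.183), and its mean difference between genotypes was 0.034 with a 95% interval of -0.15 to 0.22. *Dgat2* (chr7:99153658-99182719, minus strand) had 12415 and 12677 normalized counts in fasted control mice, 19825 and 15234 after sucrose and 10639 and 13369 after fructose. In MED13-LKO-labelled livers there were 12145 and 10125, then 11508 and 14588, then 11994 and 11564. The sucrose-fed control mice were the 2 highest of the 12, and the other groups overlapped one another in part. *Dgat2* differed by 0.47 ± 0.161 from the fasted to the sucrose-fed control mice (adjusted p = 0.105), by -0.54 between fructose-fed and sucrose-fed control mice (adjusted p = 0.422) and by -0.42 between genotypes after sucrose (adjusted p = 0.165).

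*Pnpla2* (chr7:141455198-141460743, plus strand), the gene of the lipase ATGL, fell with each sugar and in each genotype. Its spread between mice was narrow in control mice and wider in MED13-LKO-labelled livers. It had 1345 and 1322 normalized counts in fasted control mice, 666 and 678 after sucrose and 827 and 794 after fructose. The MED13-LKO-labelled livers had 1608 and 1738, then 993 and 832, then 1086 and 873. At each diet these lay above the control mice without overlap, and in each genotype the fasted mice lay above the fed mice. The log2 differences from the fasted state were -0.99 ± 0.118 after sucrose and -0.72 after fructose in control mice (adjusted p = 0.00108 and 0.00917), and -0.88 and -0.78 in MED13-LKO-labelled livers (adjusted p = 0.00348 and 0.00681). With only the compared groups fitted, the fructose call in control mice was lost (adjusted p = 0.0829). The fructose calls were lost without either fasted control mouse (adjusted p = 0.0538 and 0.065) or, in MED13-LKO-labelled livers, without replicate 2 of the fasted or of the fructose-fed group (adjusted p = 0.0555 and 0.0653). *Pnpla2* was higher in MED13-LKO-labelled livers by 0.34 ± 0.068 averaged over the diets (adjusted p = 0.0054), a call kept with any mouse left out. Within a diet the difference was 0.33 when fasted, 0.43 after sucrose and 0.26 after fructose (adjusted p = 0.115, 0.0599 and 0.212), and after sucrose it was called without either fructose-fed MED13-LKO-labelled liver (adjusted p = 0.0393) and with equal 75th percentiles (adjusted p = 0.0457). The difference after fructose was 0.11 without MED13-LKO fructose replicate 1 and 0.42 without replicate 2 (adjusted p = 0.691 and 0.119).

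*Plin5* (chr17:56111601-56117596, minus strand), whose product binds ATGL and holds droplets close to mitochondria, was highest in the fasted MED13-LKO-labelled livers. These had 2302 and 2071 normalized counts, against 845 and 1159 in fasted control mice. Control mice had 662 and 681 after sucrose and 848 and 781 after fructose, and MED13-LKO-labelled livers had 752 and 828 after sucrose and 972 and 853 after fructose. The 2 fasted MED13-LKO-labelled livers stood above the other 10. After either sugar both MED13-LKO-labelled livers also lay above both control libraries, but the genotypes were closer together. Between genotypes *Plin5* differed by 1.14 ± 0.141 when fasted (adjusted p = 0.00132), a ratio of the means of 2.18, and by 0.23 after sucrose and 0.16 after fructose (adjusted p = 0.396 and 0.539). Averaged over the diets the difference was 0.51 ± 0.0816 (adjusted p = 0.0016), and without control fructose replicate 1 it was 0.53 (adjusted p = 0.00282) and that after fructose was 0.22 (adjusted p = 0.534). From the fasted state *Plin5* fell by 1.47 after sucrose and by 1.26 after fructose on the log2 scale in MED13-LKO-labelled livers (log2 differences -1.47 and -1.26, adjusted p = 0.0012 and 0.00266). In control mice the differences were -0.56 after sucrose and -0.28 after fructose (adjusted p = 0.039 and 0.264), the latter -0.34 without control fructose replicate 1 (adjusted p = 0.335). Summed markers of sinusoidal endothelium were also highest in the fasted MED13-LKO-labelled livers, at 3803.1 and 3817.6 normalized counts, against 2785.1 and 2853.5 in fasted control mice, 2265.1 to 2641.8 in fed control mice and 2656.4 to 2942.0 in fed MED13-LKO-labelled livers. Of these 4 markers *Oit3* and *Clec4g* were called lower with each sugar in MED13-LKO-labelled livers (-0.54 for both sugars, and -0.45 and -0.49, adjusted p = 0.0201 to 0.0289), *Stab2* and *Clec4g* were called higher there when fasted (0.57 and 0.39, adjusted p = 0.0345 and 0.037), and 0 were called with feeding in control mice. Their part in the *Plin5* result was not tested. The call after sucrose in control mice was lost without control fasted replicate 2 (-0.33, adjusted p = 0.229), without either sucrose-fed control mouse (adjusted p = 0.16 and 0.114) and, with the same difference, without any 1 of the fasted or sucrose-fed MED13-LKO-labelled livers (adjusted p = 0.0528 to 0.0564). Fitting only the compared groups ended it too (adjusted p = 0.113).

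*Cidec* (chr6:113424634-113435760, minus strand), whose product fuses small droplets into larger ones and which is abundant in fat, was low in these livers. Control mice had 55.9 and 86.4 normalized counts when fasted, 80.3 and 71.3 after sucrose and 119 and 81.8 after fructose. Those labelled MED13-LKO had 122 and 149 when fasted, 84.7 and 88.5 after sucrose and 79.1 and 76.3 after fructose. The fasted MED13-LKO-labelled livers were the 2 highest of the 12. The next was control fructose replicate 1, the library highest in *Adipoq*, *Cfd* and *Retn*. When fasted *Cidec* was 0.95 ± 0.251 higher on the log2 scale in MED13-LKO-labelled livers (adjusted p = 0.044), a ratio of the means of 1.91. In those 2 fasted libraries *Adipoq* and *Cfd* were listed at 0 and *Retn* had 1.03 and 2.79 normalized counts. *Adrb3*, the other adipocyte marker in the table, had 48.6 and 64.9 there, against 37.3 and 50.1 in fasted control mice. The part of fat in this difference was not tested. The call was kept in 3 of the 12 fits that leave out 1 mouse and was lost in the other 9, of which those without control fasted replicate 1 and without MED13-LKO fasted replicate 2 moved it to 0.64 and 0.81 (adjusted p = 0.231 and 0.22), that without MED13-LKO fasted replicate 1 to 1.09 (adjusted p = 0.0944), and those without any 1 of the sucrose-fed mice or the fructose-fed MED13-LKO-labelled livers left it at 0.95 (adjusted p = 0.0588 to 0.0694). It was also lost when genes with low values were kept (adjusted p = 0.0592) and in a fit of the 2 groups alone (adjusted p = 0.104). Without control fructose replicate 1 it was kept (adjusted p = 0.0306). From the fasted state *Cidec* differed by -0.64 after sucrose and by -0.79 after fructose in MED13-LKO-labelled livers, and by 0.12 and 0.50 in control mice, none of which was called (adjusted p = 0.18, 0.0929, 0.809 and 0.268). The last was 0.23 without control fructose replicate 1 (adjusted p = 0.703).

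*Cideb* (chr14:55754050-55758458, minus strand), the CIDE gene characteristic of hepatocytes, stayed between 3517 and 4074 normalized counts in all 12 mice, and each group overlapped those it was compared with. Its log2 difference between genotypes over the diets was 0.0019 with a 95% interval of -0.10 to 0.11. Of its 31-base subsequences, 72.79% also occur in *Nop9*, which overlaps it on the opposite strand, and whether strand was used in counting is not given in the sources used here, so this value may mix both genes. For the other 9 genes at most 1.56% were shared with another gene.

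**Figure D2:**
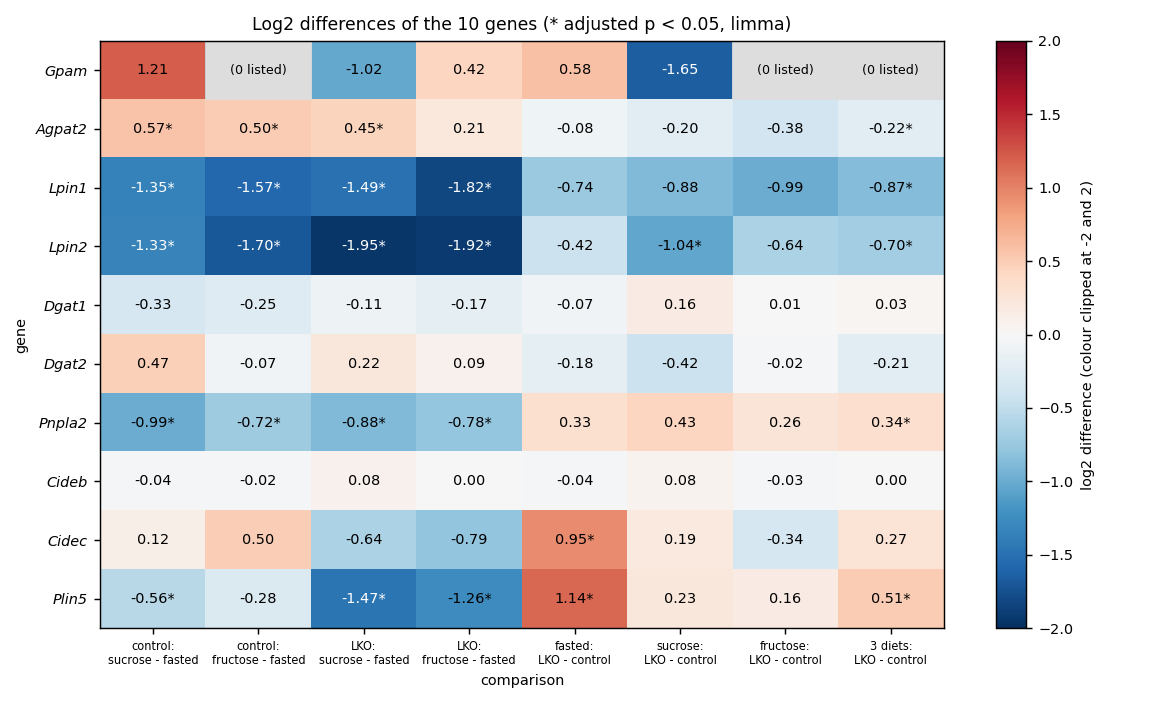
Log2 differences (colour and printed value) of the 10 genes (rows) in 8 comparisons (columns), with an asterisk where the adjusted p was under 0.05. The 4 feeding columns are negative throughout for *Lpin1*, *Lpin2*, *Pnpla2* and *Plin5*, and the asterisks for the fasted genotype column fall on *Cidec* (0.95) and *Plin5* (1.14). Grey cells rest on a library in which *Gpam* was listed at 0.

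Counted over the 10 genes, the genotype comparison gave 2 calls when fasted, both higher in MED13-LKO-labelled livers (*Plin5* and *Cidec*), where 8.98% of all genes were called, 4.12% higher and 4.86% lower. After sucrose 1 gene, *Lpin2*, was called lower, against 6.03% of all genes, 2.70% higher and 3.33% lower. After fructose 0 of the 10 were called by limma, against 7.69% of all genes, 3.74% higher and 3.95% lower. Of the 9 genes other than *Gpam*, 4 had an unadjusted p under 0.05 there, as did 23.2% of all genes. Averaged over the diets 5 were called, with *Plin5* and *Pnpla2* higher and *Lpin2*, *Lpin1* and *Agpat2* lower. For that comparison 25.3% of all genes were called, 12.1% higher and 13.2% lower, so calls were common across the table. The medians of the 10 genes were -0.06 when fasted and -0.06 after sucrose, and those of the 9 without *Gpam* were -0.03 after fructose and 0.0019 over the diets, close to those of all genes (0.013, 0, -0.0003 and 0.0058).

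No difference between the sugars was called by limma for any of the 10 genes, in either genotype. Over all genes 0.0404% were called in each genotype. An unadjusted p under 0.05 was found for 2 of the 9 genes other than *Gpam* in control mice, *Pnpla2* and *Dgat2*, and for 0 of the 10 in MED13-LKO-labelled livers, against 8.58% and 7.69% of all genes. In control mice *Pnpla2* was 0.27 higher after fructose than after sucrose on the log2 scale (95% interval 0.01 to 0.53, adjusted p = 0.569). For *Lpin2* in MED13-LKO-labelled livers the difference was 0.03 (95% interval -0.38 to 0.44).

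Whether the feeding difference itself differed between genotypes was tested as an interaction, and 0 of the 10 genes were called by limma for either sugar, with 2 at an unadjusted p under 0.05 for each. Over all genes 0.146% were called for sucrose and 0.0243% for fructose, and 8.53% and 9.46% had an unadjusted p under 0.05. *Plin5* had an interaction of -0.91 ± 0.2 after sucrose and -0.98 ± 0.2 after fructose, that is, a larger fall in MED13-LKO-labelled livers (unadjusted p = 0.00107 and 0.00063, adjusted p = 0.233 and 0.205), and without control fructose replicate 1 the latter was -0.92 (adjusted p = 0.218). For *Cidec* the interaction after fructose was -1.29 ± 0.355 (unadjusted p = 0.00463, adjusted p = 0.337), and without control fructose replicate 1 it was -1.02 (adjusted p = 0.36). *Lpin2* had -0.61 after sucrose (unadjusted p = 0.0418, adjusted p = 0.568). The intervals of *Pnpla2* ran from -0.26 to 0.48 after sucrose and from -0.43 to 0.31 after fructose.

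**Figure D3:**
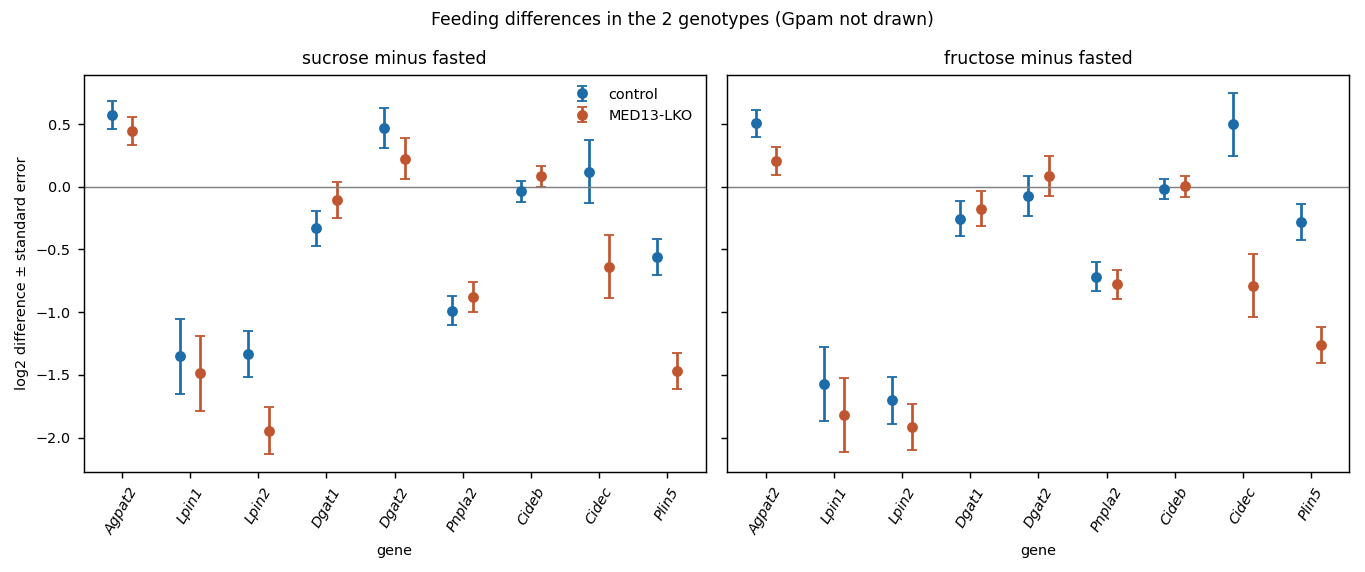
Log2 difference from the fasted state after sucrose (left) and fructose (right) for 9 genes, in control mice (blue) and MED13-LKO-labelled livers (orange), with standard errors as bars. *Plin5* shows the widest gap between the genotypes after sucrose (-0.56 against -1.47), while the 2 genotypes lie within 1 standard error of each other for *Pnpla2* and *Lpin1*.

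A wider list of 37 genes of glycerolipid synthesis, droplets and lipolysis was read beside the 10, of which 36 were in the table and 33 passed the filter on low values. *Plin1* was not analysed here. In control mice 5 of the 33 rose and 1 fell after sucrose, and 4 rose and 1 fell after fructose, against 4.85% and 3.72% and then 2.79% and 2.81% of all genes. In MED13-LKO-labelled livers 1 rose and 1 fell after sucrose, and 0 rose and 1 fell after fructose, against 2.23% and 3.48% and then 2.94% and 3.58%. The medians of the 33 were 0.19, 0.03, -0.07 and -0.0017 in that order. The gene that fell in all 4 was *Gpat4*, the endoplasmic reticulum enzyme of the first acylation, with log2 differences of -0.74, -0.42, -0.44 and -0.45 (adjusted p = 0.00235, 0.0423, 0.0315 and 0.0287). Its first call was kept in every fit, and the others were lost in 8, 3 and 3 of the 12 fits that leave out 1 mouse, at adjusted p of up to 0.178, 0.171 and 0.169. Without MED13-LKO fasted replicate 1 the last pair were -0.31 and -0.32. *Gpd1*, which makes glycerol 3-phosphate from a glycolytic intermediate, rose from 3594 and 4081 normalized counts in fasted control mice to 6764 and 7954 after sucrose and 6973 and 7705 after fructose (log2 differences 0.94 for each, adjusted p = 0.000826 and 0.00224), and by 0.77 after sucrose in MED13-LKO-labelled livers (adjusted p = 0.00373). *Mgll*, the monoglyceride lipase of the last step of lipolysis, rose by 0.97 after sucrose and 0.82 after fructose in control mice (adjusted p = 0.000589 and 0.00298). *Pnpla3*, a relative of *Pnpla2*, went from 6.78 and 3.61 normalized counts in fasted control mice to 312 and 79.6 after sucrose (log2 difference 4.73, adjusted p = 0.00379). After fructose control mice had 27.55 and 10.1, which was not called. In MED13-LKO-labelled livers it had 7.23 and 10.2 when fasted, 32.4 and 81.9 after sucrose and 38.4 and 58.0 after fructose. Neither rise there was called. *Fitm2* rose by 0.53 after fructose in control mice (adjusted p = 0.0441). That of *Fitm2* was lost in 11 of the 12 fits that leave out 1 mouse and was 0.32 without control fructose replicate 1 (adjusted p = 0.171), while none of those of *Gpd1*, *Mgll* and *Pnpla3* was lost in the 12. With only the compared groups fitted, the fructose calls of *Gpd1* and *Mgll* were lost (adjusted p = 0.0753 and 0.0828).

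Between genotypes, 6 genes of the wider list were higher and 2 lower in fasted MED13-LKO-labelled livers, 1 and 2 after sucrose, 3 and 3 after fructose, and 7 and 6 over the diets. These stand against 8.98%, 6.03%, 7.69% and 25.3% of all genes called in either direction. *G0s2*, whose product inhibits ATGL, had 226 and 409 normalized counts in fasted control mice against 2012 and 876 in fasted MED13-LKO-labelled livers, a log2 difference of 2.12 ± 0.367 (adjusted p = 0.00751). After fructose it had 744 and 927 against 2280 and 3250 (1.71, adjusted p = 0.0213). The first call was lost without control fasted replicate 1 (1.70, adjusted p = 0.0609) and the second without control fructose replicate 1 or MED13-LKO fructose replicate 2 (adjusted p = 0.0942 and 0.142). *Gpat3*, another enzyme of the first acylation, ran from 35.5 to 112 normalized counts in control livers and from 207 to 433 in those labelled MED13-LKO, and its difference over the diets was 2.26 ± 0.272 (adjusted p = 0.000313). Of its 31-base subsequences 32.34% occur in another gene. *Fitm1* and *Fitm2* encode proteins that bind triglyceride during droplet formation. *Fitm1* was lower in MED13-LKO-labelled livers, by -1.33 when fasted and -1.02 after fructose (adjusted p = 0.00372 and 0.0152), and *Fitm2* was higher by 0.77 when fasted (adjusted p = 0.0063). The fasted call of *Fitm1* was kept with any mouse left out, that after fructose was lost without control fructose replicate 2 or either fructose-fed MED13-LKO-labelled liver (adjusted p = 0.0527 to 0.0867), and that of *Fitm2* was lost without control fasted replicate 1 (adjusted p = 0.0562). *Mgll* was higher by 0.76 when fasted (adjusted p = 0.00186) and *Plin3*, a droplet coat gene, by 0.71 after fructose (adjusted p = 0.0182). The first was kept with any mouse left out, and the second was lost in 3 of 12 such fits (without control fructose replicate 1 or either fructose-fed MED13-LKO-labelled liver, adjusted p = 0.0516 to 0.122). *Aadac*, a liver esterase of the endoplasmic reticulum, was lower at each diet, by -0.64 when fasted, -0.69 after sucrose and -0.64 after fructose (adjusted p = 0.00807, 0.00791 and 0.00863), and *Hsd17b13*, a droplet protein gene, by -0.49 after sucrose (adjusted p = 0.0337). The fasted call of *Aadac* was lost without replicate 2 of either fasted group (adjusted p = 0.0615 and 0.0707), that after sucrose without replicate 1 of either sucrose-fed group (adjusted p = 0.0523 and 0.0872) and that after fructose without MED13-LKO fructose replicate 2 (adjusted p = 0.0614). Its difference over the diets was called with any mouse left out (-0.66, adjusted p = 9.34e-05). That of *Hsd17b13* was lost in 8 of 12 such fits (adjusted p of up to 0.228). The medians of the 33 genes between genotypes were 0.12, -0.06, -0.07 and 0.02 in the order fasted, sucrose, fructose and all diets.

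**Figure D4:**
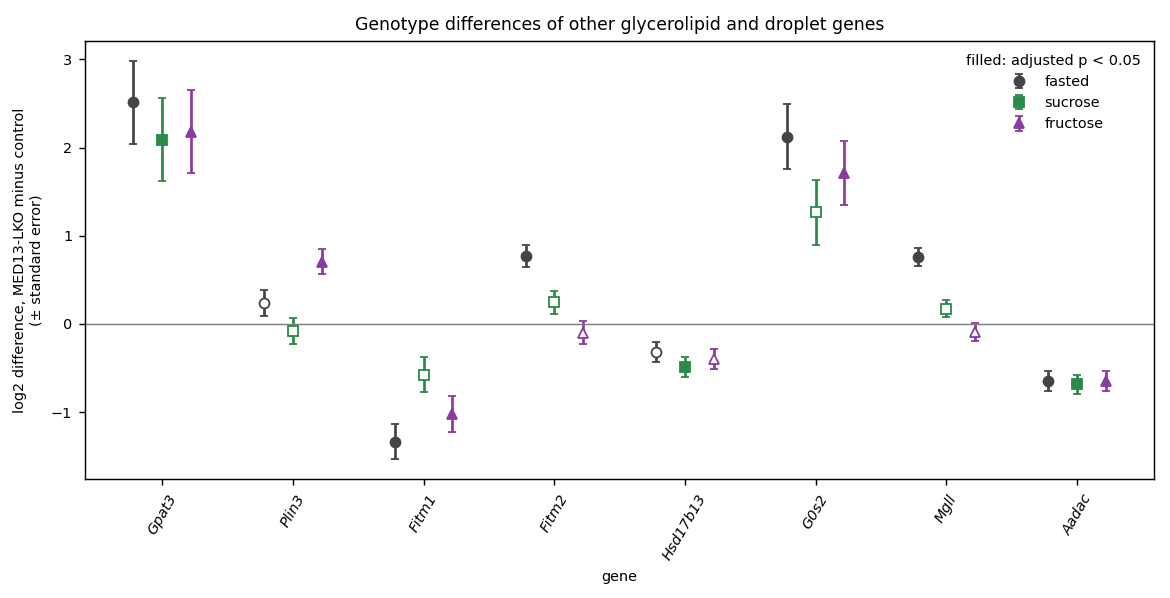
Log2 difference between MED13-LKO-labelled livers and control libraries, with standard errors as bars, for 8 genes of the wider list when fasted (grey), after sucrose (green) and after fructose (purple). Filled symbols have an adjusted p under 0.05; *Gpat3* and *G0s2* lie above 1 at every diet and *Aadac* lies between -0.69 and -0.64.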

How the data were processed

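RNA-seq of 12 mouse livers was analysed, with groups and replicate numbers taken from the sample titles. The authors trimmed reads (Trim Galore 0.6.5), estimated counts (kallisto 0.46.0) and scaled them (DESeq2 1.24.0), as their processing notes list, and the deposited signal is a normalized count for each of 16346 genes. In genes with a single transcript 87.33% to 98.99% of low values were whole multiples (within 0.05) of a step, but over all genes 51.95% to 58.95% were, so whole reads were not recovered and no test on counts was run. Estimated depth was 16090000 to 24230000 reads per library, and with 2 mice per group the spread was estimated jointly over the 6 groups.

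Values of log2(normalized count + 1) for 12366 genes, those averaging 10 or more, were modelled with limma 3.58.1 (R 4.3.3) as 1 model of 6 groups with a mean-dependent prior, and p-values were adjusted by Benjamini and Hochberg over all genes tested. The fit was tested on simulated data. Annotation was GENCODE M21 on GRCm38, promoters were from RefSeq, and figures used Python 3.11.15 and matplotlib 3.10.9. The members and gene lists were chosen with earlier results of these data known. Named were all 10 members and, of the wider list, at most the 4 called genes of smallest adjusted p in a comparison. For each member up to 3 genes of highest correlation were also named, and 1 gene that this rule picks is not reported here. Alternatives were pseudocounts of 0.1 and 10, no filter, equal 75th percentiles, a replicate block, only the groups compared, and leaving out each mouse.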

Additional observations from a re-analysis of the deposited data

How the results depend on the processing

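For the 46 differences of the 10 genes with an unadjusted p under 0.05, 823 values were recomputed, of which 745 kept their side of the threshold, 66 lost a call, 12 gained one and 0 changed sign, and 12 of the 26 calls were kept in every fit. The wider list was put through the same alternatives after the data were seen, and of its 44 calls 17 were kept in every fit, with 136 of 779 values losing a call and 0 changing sign. With only the compared groups fitted, 0 of the 10 genes were called for fructose against fasted in control mice and 2 between genotypes after sucrose, and equal 75th percentiles also gave 2 there. Between genotypes when fasted, no filter on low values gave 1 call. The replicate block gave 1 call between genotypes when fasted and 1 after fructose. It ended the calls of *Cidec* between fasted genotypes, *Plin5* after sucrose in control mice and *Agpat2* after sucrose in MED13-LKO-labelled livers (adjusted p = 0.0628, 0.0544 and 0.0527) and gained that of *Lpin2* between genotypes after fructose (adjusted p = 0.0434). Mice with the same number in the sample titles did not deviate together (r from -0.142 to 0.0782 over 15 pairs of groups, 0 over 0.1). No pairing by those numbers was seen. The authors' library names number the fasted mice 1 and 2 and the fed mice 2 and 3. A pairing of fasted with fed mice by these names was not tested. Leaving out 1 mouse gave 2 to 5 calls for sucrose and 1 to 4 for fructose against fasted in control mice, and 3 to 5 and 3 to 4 in MED13-LKO-labelled livers. Between genotypes it gave 1 to 2 when fasted, 0 to 3 after sucrose, 0 to 2 after fructose (2 without control fructose replicate 1, *Lpin2* and *Gpam*, and at most 1 without *Gpam*) and 4 to 5 over the diets. Between the sugars it gave 0 to 1 in control mice (1 without control fructose replicate 1, for *Gpam*, listed at 0 in the mouse that remained). The sugars in MED13-LKO-labelled livers and both interactions stayed at 0 in every fit. The cause of these changes was not tested. Where a group was left with 1 mouse, that mouse was assumed to vary like the other groups. With 2 mice per group, differences smaller than those called may have been missed, and the tests measure only the spread between these mice.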

Other observations

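Over the 12 libraries, the genes whose log2 values followed a member most closely were listed by Pearson correlation, as a description in which all points share 6 groups, diets and scaling. *Agpat2* was closest to *Thrsp*, a lipogenic gene (r = 0.965), *Gm16286* (0.959) and *Acaca*, the acetyl-CoA carboxylase of fatty acid synthesis (0.952). *Lpin2* was closest to the translation factor gene *Eif4b* (0.988), *Fchsd2* (0.981) and *Ivns1abp* (0.975), and *Lpin1* to *Ahcy* (0.969), *Abca6* (0.966) and *Man2a1* (0.965). *Pnpla2* was closest to *Inpp4a* (0.969), *Slc25a34* (0.963) and *AW549877* (0.961). *Plin5* was closest to the macrophage and endothelial receptor gene *Mrc1* (0.968) and the helicase gene *Ddx5* (0.960). *Cidec* was closest to *Fitm2* (0.862), *Tab2* (0.861) and *Tec* (0.859), and *Dgat2* to the water channel gene *Aqp8* (0.949), *Shpk* (0.944) and *Eepd1* (0.919). For *Gpam* none is given, as 1 library lists it at 0. The closest genes had r of 0.85 for *Dgat1* (*Mrpl32*) and 0.809 for *Cideb* (*Cog1*).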
